A study of Homo sapiens with 12 samples.

Results

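The 28 genes described here encode enzymes, regulators and carriers of cholesterol: ACAT2, HMGCS1, MVK, PMVK, MVD, IDI1, FDPS, FDFT1, SQLE, LSS, CYP51A1, TM7SF2, LBR, MSMO1, NSDHL, HSD17B7, EBP, SC5D, DHCR7, SREBF2, SCAP, INSIG1, INSIG2, STARD4, NPC1, ABCA1, ABCG1 and SOAT1. They were chosen by name for their place in the pathway, and the list does not hold every gene of it. All 28 were found by Ensembl identifier among the 54127 identifiers of the count files, and all 28 were among the 14501 genes with enough reads to be tested. The study knocked down CHKA, the choline kinase that starts the synthesis of phosphatidylcholine, in C4-2 cells to measure the effect on the transcriptome. C4-2 is an established human prostate cancer line derived from LNCaP. In the siCHKA group, 6 samples had received a pool of small interfering RNAs against CHKA at 50 nM by reverse transfection. In the siNT group, 6 samples had received nontargeting siRNA in the same way. Both groups were grown in RPMI with fetal bovine serum. The knockdown was transient and came from a single pool, so that in the samples analysed here effects of the pool on other transcripts and effects of the loss of CHKA cannot be told apart.

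Cells make cholesterol from acetyl-CoA through mevalonate, squalene and lanosterol, and take it up in lipoproteins that are broken down in lysosomes. The pool in the endoplasmic reticulum is sensed by SCAP and the INSIG proteins, which decide whether the transcription factor SREBP2 is released to switch on most genes of synthesis and uptake. Excess sterol is exported by ABC transporters under control of the liver X receptors or stored as esters, and prostate cancer cells are known to use cholesterol for membranes and as a precursor of androgens.

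Reads counted on genes ranged from 12158361 to 20670479 in the siCHKA samples and from 10685184 to 24246055 in the siNT samples. Values are given as CPM, counts scaled to a common library size, after TMM normalization, a scaling that assumes that most genes do not change, and 3 counts correspond to 0.124 to 0.281 CPM. CHKA itself had a lowest, median and highest level of 1.91, 2.31 and 4.67 CPM after siCHKA and of 36.7, 41.6 and 43.3 CPM after siNT, a log2 fold change of -3.88. The siCHKA samples fell into 2 sets that the labels do not name. In counts over genes, replicates 2, 4 and 6 differed from each other by a chi-square per degree of freedom of 2.44 to 4.24, replicates 1, 3 and 5 by 4.09 to 9.44, and samples across the sets by 12.8 to 25.2. Among the siNT samples the values for pairs within and across the same numbers overlapped, from 2.44 to 30.3. That comparison covers only this split. For several cholesterol genes, TM7SF2, INSIG1 and INSIG2 among them, siNT replicates 1 to 3 lay apart from siNT replicates 4 to 6. The labels do not name this split either, and its part in the fold changes was not tested. Values for both siCHKA sets are given for each cholesterol gene whose call or direction differed between them. All 9 luminal prostate markers were tested, 6 of them lower and 3 higher. Of the markers of basal cells, fibroblasts, leukocytes and endothelium, 10 had too few reads to be tested, KRT5, TP63, PTPRC, CD3E and CDH5 among them, and PECAM1 was not analysed here. KRT14 (log2 fold change 0.58), COL1A1 (0.82) and CD68 (0.68) were higher after siCHKA, and VWF was lower with 1.13 to 1.82 CPM against 2.05 to 3.65 CPM, and their part in the results was not tested. Summed levels reached at most 2.10 CPM for 3 basal, 5.97 CPM for 4 leukocyte and 3.65 CPM for 2 endothelial markers, and 5 fibroblast markers summed to 24.2 to 30.6 CPM after siCHKA and 11.7 to 19.1 CPM after siNT. The fibroblast sums were nearly all COL1A1, with means of 26.8 CPM after siCHKA and 15.0 CPM after siNT. With few reads, COL3A1 (means of 0.19 and 0.42 CPM) and PTPRC (0.025 and 0.148 CPM) went the other way. Of 12 proliferation genes all 12 were lower after siCHKA, their summed level being 1246 to 1326 CPM against 3219 to 3539 CPM, and the part of this shift in the results on cholesterol genes was not tested. In RNA from bulk cells, fewer cells of a kind and less RNA per cell cannot be told apart.

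SREBP2 acts on promoters through sterol regulatory elements, together with the factors NF-Y and Sp1. The promoter windows of RefSeq (build GRCh38.p14, 250 bases before to 50 after the start of the gene, both strands searched) were available for 24 of the 28 genes, 30 windows in all, since some genes have several starts. The core TCACNCCAC of the sterol regulatory element was in 1.13% of the 35116 windows of all genes and in 1 of the 30, that of SREBF2. The letters CCAAT, bound by NF-Y, were in 34.6% of all windows and in 19 of the 30. The GC box GGGCGG, bound by Sp1, was in 45.0% of all windows and in 27 of the 30, and the E box CACGTG in 7.26% and in 6. Counted by gene, with any of its windows, CCAAT was in 39.7% of all genes and in 17 of the 24, and GGGCGG in 48.3% and in 22. The windows of 4 genes on which the results below turn follow 5′ to 3′ in the direction of the gene: SREBF2, which encodes SREBP2 (chr22:41832855-41833154, plus strand), EBP, which had the lowest log2 fold change of the 28 (chrX:48521558-48521857, plus strand), and the genes of 2 enzymes of the same step, TM7SF2 (chr11:65111622-65111921, plus strand) and LBR (chr1:225428772-225429071, minus strand). Capitals mark TCACNCCAC and CCAAT, the latter read as ATTGG on the opposite strand.
SREBF2: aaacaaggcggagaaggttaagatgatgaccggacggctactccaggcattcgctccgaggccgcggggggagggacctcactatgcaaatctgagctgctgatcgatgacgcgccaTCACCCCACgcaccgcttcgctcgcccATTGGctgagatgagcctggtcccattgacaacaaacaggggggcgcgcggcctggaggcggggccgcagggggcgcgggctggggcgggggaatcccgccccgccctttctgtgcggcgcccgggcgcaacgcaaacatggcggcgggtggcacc
EBP: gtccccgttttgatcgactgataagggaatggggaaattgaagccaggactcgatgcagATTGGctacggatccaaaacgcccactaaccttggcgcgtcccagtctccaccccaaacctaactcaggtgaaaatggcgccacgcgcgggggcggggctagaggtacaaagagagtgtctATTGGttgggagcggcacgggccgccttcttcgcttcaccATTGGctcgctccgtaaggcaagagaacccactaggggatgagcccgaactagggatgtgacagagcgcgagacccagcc
TM7SF2: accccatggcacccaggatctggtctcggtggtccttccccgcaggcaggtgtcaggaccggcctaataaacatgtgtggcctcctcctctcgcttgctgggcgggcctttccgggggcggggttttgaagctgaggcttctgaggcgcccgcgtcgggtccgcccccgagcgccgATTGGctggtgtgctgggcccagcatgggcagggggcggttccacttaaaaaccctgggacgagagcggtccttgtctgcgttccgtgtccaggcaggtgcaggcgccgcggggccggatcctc
LBR: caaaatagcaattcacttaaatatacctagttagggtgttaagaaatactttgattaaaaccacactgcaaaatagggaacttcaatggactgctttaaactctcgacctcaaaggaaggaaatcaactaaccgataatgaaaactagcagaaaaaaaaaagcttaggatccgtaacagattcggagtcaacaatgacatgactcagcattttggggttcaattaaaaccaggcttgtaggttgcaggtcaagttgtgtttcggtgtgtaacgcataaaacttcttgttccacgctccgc
The window of EBP held 3 copies of the CCAAT box, those of TM7SF2 and SREBF2 1 each, and in that of LBR these letters were not found. A match is a description of the letters and not of a bound site.

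After CHKA knockdown, 15 of the 28 cholesterol genes were lower and 4 were higher at a Benjamini-Hochberg adjusted p-value below 0.05 (edgeR's quasi-likelihood test over all 14501 genes), and 9 did not pass. The share lower was 53.6% for the cholesterol genes against 30.1% for all tested genes, and the share higher was 14.3% against 32.1%. Many of the changes that passed were smaller than 0.5 on the log2 scale. When a change of at least 0.5 on the log2 scale was also required, 7 cholesterol genes were lower (25.0% against 14.0% of all genes) and 2 were higher (7.14% against 16.2%). The median log2 fold change was -0.26 for the cholesterol genes and 0.03 for all genes. In 12 genes every siCHKA sample was below every siNT sample (42.9% against 21.5% of all genes), and in 3 every siCHKA sample was above (10.7% against 19.1%). For each of these 15 genes the exact permutation test of the means (two-sided) gave p = 0.00216, the smallest that 6 against 6 samples allow. Groups that do not overlap always give this smallest value, so the permutation test adds nothing to the lack of overlap by which these genes were picked. These shares depend on the scaling. With upper-quartile factors the median of all genes moved to 0.18, and 3052 genes were lower and 6609 higher, so that 31.6% of all calls were lower rather than 48.5%. Under that scaling 12 cholesterol genes were lower and 9 higher, with a median of -0.11, where 21.0% and 45.6% of all genes were lower and higher. By at least 0.5 on the log2 scale, 3 cholesterol genes were then lower and 4 higher. The shares of all genes at that size under this scaling are not given here. The p-values measure the spread between samples, since the labels do not say whether the 6 samples of a group came from separate cultures, though the study's legends call them biological replicates.

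**Figure D1:**
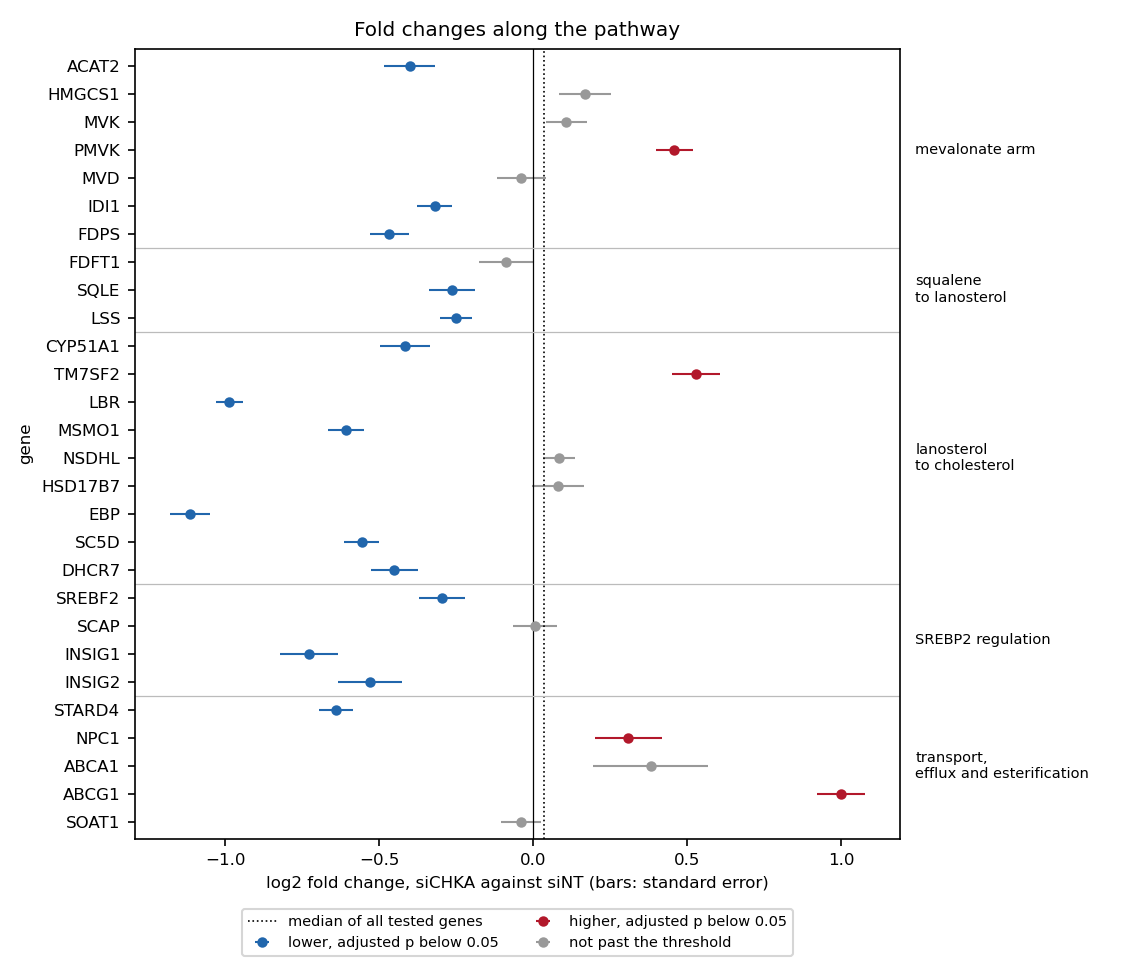
Log2 fold change of each of the 28 cholesterol genes, siCHKA against siNT (x axis), in the order of the pathway (y axis), with bars of 1 standard error from edgeR and a dotted line at the median of all tested genes (0.03). The lowest values are those of EBP (-1.11) and LBR (-0.99), and the highest is that of ABCG1 (1.00).

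The counts and medians differed by place in the pathway, though these differences were not tested. All counts stand against 30.1% lower and 32.1% higher among all tested genes. Of 9 genes from lanosterol to cholesterol, 6 were lower (66.7%) and 1 was higher (11.1%), with a median log2 fold change of -0.45. Among 7 genes of the mevalonate arm, 3 were lower (42.9%) and 1 was higher (14.3%), with a median of -0.04. All 3 genes from squalene to lanosterol had values below 0, and 2 passed. Of the 4 genes that regulate SREBP2, 3 were lower, and of the 5 genes of transport, efflux and esterification, 1 was lower and 2 were higher. In the plot of each sample against the siNT mean, the median over all 28 genes lay between -0.11 and -0.39 in the 6 siCHKA samples.

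**Figure D2:**
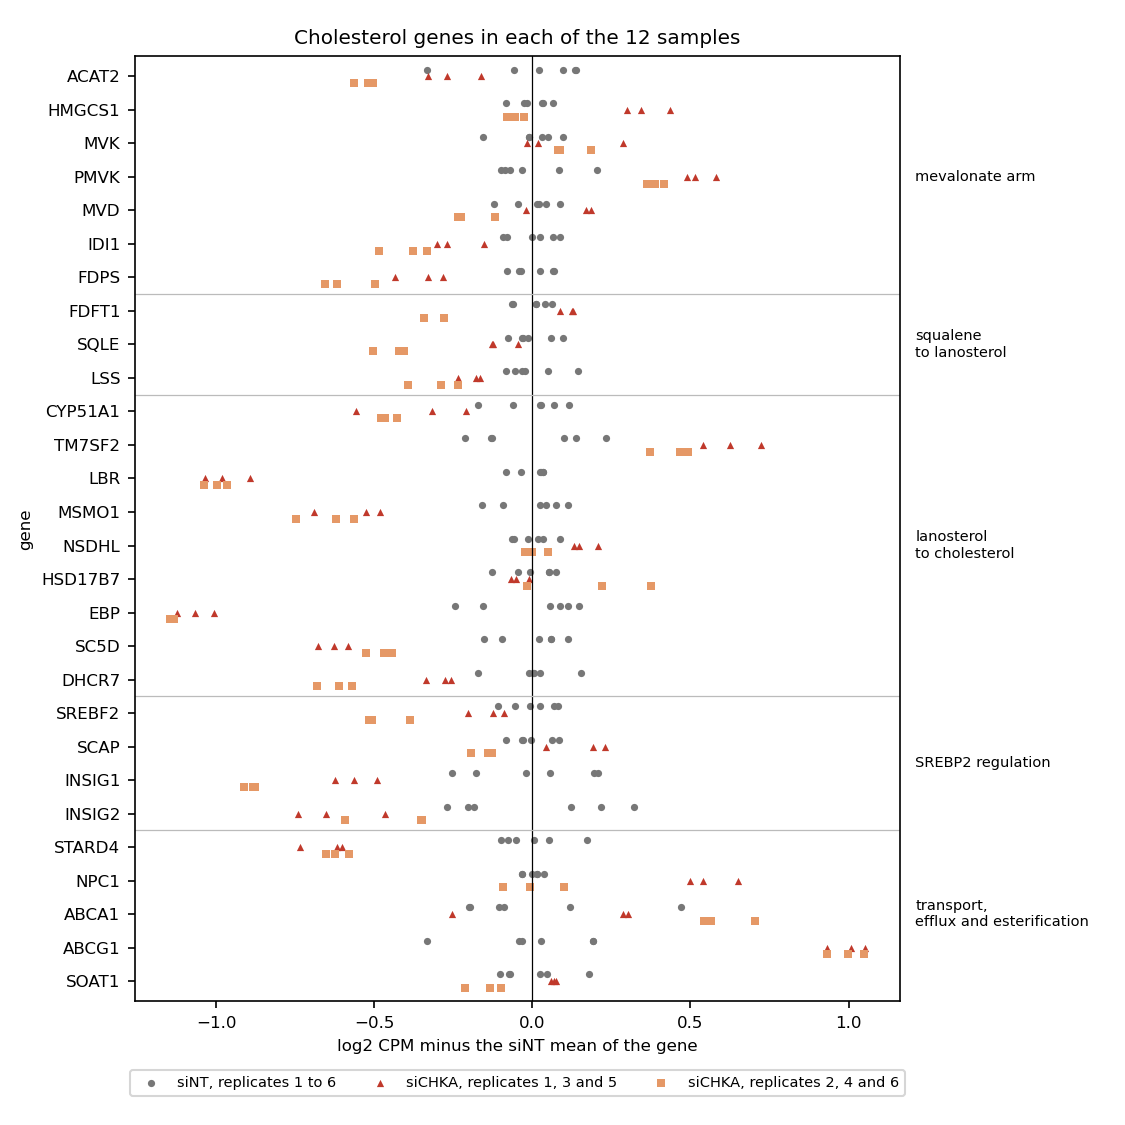
Log2 CPM of each cholesterol gene in each of the 12 samples, minus the mean of the 6 siNT samples for that gene (x axis), with genes in pathway order (y axis), siNT as gray circles and the 2 sets of siCHKA replicates as triangles and squares. For LBR, MSMO1, STARD4 and ABCG1 the 2 sets lie on top of each other, whereas for HMGCS1, FDFT1 and NPC1 replicates 1, 3 and 5 lie to the right of replicates 2, 4 and 6.

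In the mevalonate arm 3 genes were lower, 1 was higher and 3 did not pass. ACAT2, which joins acetyl-CoA units, was lower with a log2 fold change of -0.40. HMGCS1 (ENSG00000112972, chr5:43287470-43313512), which makes the substrate of the rate-limiting reductase, had a lowest, median and highest level of 169, 197 and 241 CPM after siCHKA and of 168, 179 and 187 CPM after siNT. The lower siCHKA samples lay inside the siNT range and the others above it, and the log2 fold change of 0.17 ± 0.08 (SE) did not pass the threshold (edgeR's quasi-likelihood test, adjusted p = 0.0955). The spread followed the 2 sets. Replicates 1, 3 and 5 had 220 to 241 CPM, all above every siNT sample, and replicates 2, 4 and 6 had 169 to 175 CPM, inside the siNT range. Against all siNT samples the log2 fold change of HMGCS1 was 0.36 with the first set and -0.061 with the second. HMGCS1 also passed with upper-quartile scaling (0.31, adjusted p = 0.0026) and with an offset for GC content and length (0.27, adjusted p = 0.0093). The kinases that phosphorylate mevalonate differed: PMVK was higher with a log2 fold change of 0.46 (0.24 with the offset for GC content and length), while MVK had a value of 0.11 that did not pass. MVD, the decarboxylase that makes isopentenyl diphosphate, had -0.04 and did not pass. IDI1, which isomerizes that product, was lower with -0.32, and FDPS, which makes farnesyl diphosphate, was lower with -0.47. For PMVK, IDI1 and FDPS the groups did not overlap.

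From squalene to lanosterol the changes were small. FDFT1, the squalene synthase, had a log2 fold change of -0.09 and did not pass. SQLE (ENSG00000104549), the squalene epoxidase and a control point of the pathway, had a lowest, median and highest level of 63.6, 75.3 and 87.5 CPM after siCHKA and of 85.6, 88.9 and 96.5 CPM after siNT. The groups overlapped only where the highest siCHKA samples met the lowest siNT samples. The log2 fold change of SQLE was -0.26 ± 0.07 (SE, edgeR's quasi-likelihood test, adjusted p = 0.00534, exact permutation test, two-sided, p = 0.00433). With replicates 2, 4 and 6 the log2 fold change of SQLE was -0.45, and with replicates 1, 3 and 5 it was -0.10 and did not pass (adjusted p = 0.156). LSS, which closes the ring to lanosterol, was lower with -0.25 and no overlap of the groups. With upper-quartile scaling neither SQLE (-0.12) nor LSS (-0.11) passed.

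The steps from lanosterol to cholesterol included EBP and LBR, the genes with the lowest log2 fold changes of the 28. EBP (ENSG00000147155, chrX:48521799-48528716) is the sterol isomerase that shifts a double bond of the ring. Its lowest, median and highest levels were 71.4, 72.3 and 78.6 CPM after siCHKA and 133, 166 and 175 CPM after siNT. All 6 siCHKA samples lay close together and far below the lowest siNT sample. EBP was 2.17-fold lower, a log2 fold change of -1.11 ± 0.07 (SE, edgeR's quasi-likelihood test, adjusted p = 1.97e-10). LBR (ENSG00000143815, chr1:225401502-225428925), a protein of the inner nuclear membrane that binds lamin B and is also a sterol reductase, had 126, 130 and 139 CPM after siCHKA and 245, 264 and 265 CPM after siNT. The siCHKA samples again lay close together, all well below the siNT samples. LBR was 1.98-fold lower, a log2 fold change of -0.99 ± 0.04 (SE, edgeR's quasi-likelihood test, adjusted p = 5.66e-12).

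**Figure D3:**
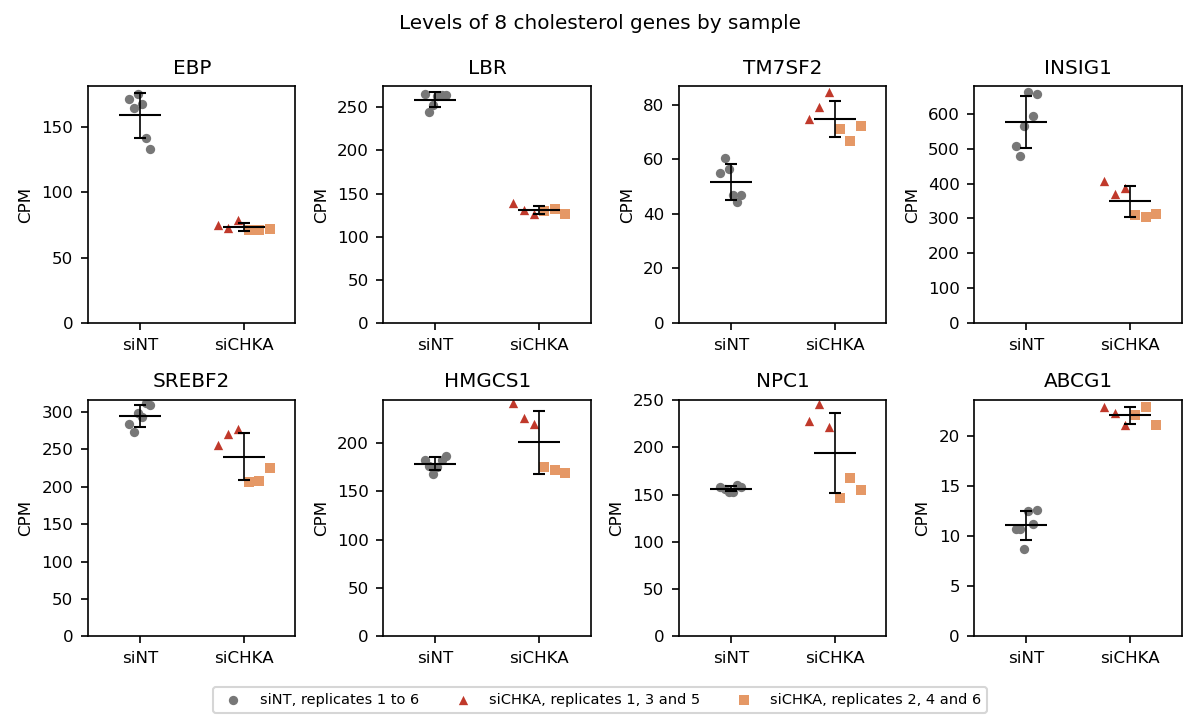
CPM (y axes, from 0) of 8 cholesterol genes in each sample of siNT and siCHKA (x axes), with the mean and SD of each group (n = 6) as bars. EBP, LBR, INSIG1, TM7SF2 and ABCG1 have no overlap between groups, and the siCHKA samples of INSIG1, SREBF2, HMGCS1 and NPC1 split into replicates 1, 3 and 5 above and replicates 2, 4 and 6 below.

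TM7SF2 (ENSG00000149809, chr11:65111845-65116384) encodes the other reductase of the same step, in the endoplasmic reticulum, and moved the opposite way to LBR. Its lowest, median and highest levels were 66.5, 73.5 and 84.8 CPM after siCHKA and 44.3, 51.0 and 60.4 CPM after siNT. Again the groups did not overlap, the lowest siCHKA sample being above the highest siNT sample. The siNT samples were themselves split, with 55.1 to 60.4 CPM in replicates 1 to 3 and 44.3 to 47.0 CPM in replicates 4 to 6. TM7SF2 was 1.44-fold higher, a log2 fold change of 0.53 ± 0.08 (SE, edgeR's quasi-likelihood test, adjusted p = 1.71e-05). With an offset for GC content and length its log2 fold change was 0.33 and still passed. Both genes can be set side by side on a scale per length, TPM, which divides counts by length before scaling, computed with the length of all exons of a gene joined. On that scale the ratio of TM7SF2 to LBR was 0.280, 0.323 and 0.414 (lowest, median and highest) in the siNT samples and 0.842, 0.939 and 1.13 in the siCHKA samples. The ratio was thus 2.88-fold higher after siCHKA with no overlap. Both genes were already apart between the groups, in opposite directions, so the ratio could not overlap and a test of it would add nothing. With the length of 1 reference transcript per gene (MANE Select) the ratio was 0.397 to 0.587 in siNT and 1.19 to 1.60 in siCHKA, and the fold between groups is the same by construction.

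The demethylation and desaturation steps were lower with a few exceptions. MSMO1 (ENSG00000052802, chr4:165327667-165343164), the oxygenase that starts the removal of a pair of methyl groups from the ring, had 70.8, 78.8 and 85.2 CPM after siCHKA and 106, 122 and 129 CPM after siNT. Its groups were clearly apart, with a log2 fold change of -0.61 ± 0.06 (SE, edgeR's quasi-likelihood test, adjusted p = 1.15e-07). SC5D (ENSG00000109929, chr11:121292681-121313410), the desaturase that follows EBP, had 74.0, 80.6 and 86.9 CPM after siCHKA and 106, 122 and 128 CPM after siNT. Here too every siCHKA sample was below every siNT sample, and the log2 fold change was -0.56 ± 0.06 (SE, edgeR's quasi-likelihood test, adjusted p = 2.21e-07). Unlike most of the cholesterol genes, SC5D was lower in siCHKA replicates 1, 3 and 5, with 74.0 to 79.0 CPM, than in replicates 2, 4 and 6, with 82.1 to 86.9 CPM. DHCR7, a reductase of the last steps, was lower with a log2 fold change of -0.45, and CYP51A1, the demethylase that acts on lanosterol, was lower with -0.42. NSDHL and HSD17B7, which act with MSMO1 in the removal of methyl groups, had values of 0.08 each and did not pass.

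Among the regulators, both INSIG genes and SREBF2 were lower and SCAP did not pass. INSIG1 (ENSG00000186480, chr7:155297776-155310235), which holds the SCAP and SREBP complex in the endoplasmic reticulum and is itself a target of SREBP2, had 304, 341 and 408 CPM after siCHKA and 480, 580 and 662 CPM after siNT. The siNT samples were widely spread and still all above the siCHKA samples. Of these, siNT replicates 1 to 3 had 480 to 564 CPM and siNT replicates 4 to 6 had 595 to 662 CPM. The log2 fold change of INSIG1 was -0.73 ± 0.09 (SE, edgeR's quasi-likelihood test, adjusted p = 3.49e-06), -0.57 with replicates 1, 3 and 5 and -0.91 with replicates 2, 4 and 6. INSIG2 (ENSG00000125629, chr2:118088452-118110997), its relative, had 21.8, 25.3 and 28.6 CPM after siCHKA and 30.2, 35.9 and 45.7 CPM after siNT. The highest siCHKA sample was just below the lowest siNT sample, and the log2 fold change was -0.53 ± 0.10 (SE, edgeR's quasi-likelihood test, adjusted p = 0.000294). For INSIG2 too the siNT samples were split, with 30.2 to 32.1 CPM in replicates 1 to 3 and 39.7 to 45.7 CPM in replicates 4 to 6.

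SREBF2 (ENSG00000198911, chr22:41833105-41907306), whose promoter window is printed above with its sterol regulatory element, had 206, 240 and 277 CPM after siCHKA and 273, 296 and 311 CPM after siNT. The ranges overlapped by the highest siCHKA and the lowest siNT samples. Its log2 fold change was -0.30 ± 0.07 (SE, edgeR's quasi-likelihood test, adjusted p = 0.00238, exact permutation test, two-sided, p = 0.00433). The value was -0.48 with replicates 2, 4 and 6, and -0.14 with replicates 1, 3 and 5, which did not pass (adjusted p = 0.0586). With upper-quartile scaling it was -0.15 and did not pass. SCAP (ENSG00000114650, chr3:47413681-47477126), the sterol sensor that escorts SREBP2 to the Golgi, had 74.3, 82.8 and 99.8 CPM after siCHKA and 80.3, 84.1 and 90.3 CPM after siNT. The siCHKA samples lay on both sides of the siNT range, and the log2 fold change of 0.01 ± 0.07 (SE) did not pass (edgeR's quasi-likelihood test, adjusted p = 0.938). Replicates 1, 3 and 5 had 87.7 to 99.8 CPM of SCAP and replicates 2, 4 and 6 had 74.3 to 77.9 CPM, giving log2 fold changes of 0.16 and -0.16.

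The transport genes moved in both directions. STARD4 (ENSG00000164211, chr5:111496033-111512590), a soluble sterol carrier and a known SREBP2 target, had 26.0, 28.2 and 29.0 CPM after siCHKA and 40.5, 42.7 and 48.9 CPM after siNT. Its groups were far apart and the siCHKA samples close together, with a log2 fold change of -0.64 ± 0.06 (SE, edgeR's quasi-likelihood test, adjusted p = 2.88e-08). ABCG1 (ENSG00000160179, chr21:42199689-42297244), an efflux transporter and a known target of the liver X receptors, had 21.1, 22.1 and 22.9 CPM after siCHKA and 8.69, 11.0 and 12.6 CPM after siNT. Every siCHKA sample was well above every siNT sample. ABCG1 was 2.00-fold higher, a log2 fold change of 1.00 ± 0.08 (SE, edgeR's quasi-likelihood test, adjusted p = 8.64e-09), with 1.01 and 0.99 in the 2 sets of replicates. ABCA1 (ENSG00000165029, chr9:104781006-104928155), the efflux transporter that loads apolipoprotein A-I and another such target, had few reads, 13 to 45 counts per sample, with 1.13, 1.88 and 2.31 CPM after siCHKA and 1.18, 1.27 and 1.94 CPM after siNT. The siCHKA samples were above the highest siNT sample in replicates 2, 4 and 6 and within or below the siNT range in the others, and at this depth the log2 fold change of 0.38 ± 0.19 (SE) did not pass (edgeR's quasi-likelihood test, adjusted p = 0.0857, exact permutation test, two-sided, p = 0.0671).

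NPC1 (ENSG00000141458, chr18:23506184-23586506), which exports cholesterol from lysosomes, had 146, 194 and 246 CPM after siCHKA and 153, 157 and 160 CPM after siNT. The siNT samples were within a narrow band, and the siCHKA samples lay below it, within it, just above it (replicate 4, 167 CPM) and, in replicates 1, 3 and 5, far above it. The log2 fold change of 0.31 ± 0.11 (SE) passed in edgeR's quasi-likelihood test (adjusted p = 0.0199), but the exact permutation test of the means gave p = 0.0974 (two-sided). The highest levels were those of 1 set: replicates 1, 3 and 5 had 221 to 246 CPM, and replicates 2, 4 and 6 had 146 to 167 CPM. The log2 fold change against all siNT samples was 0.57 with the first set and -0.01 with the second (adjusted p = 0.931). SOAT1 (ENSG00000057252, chr1:179293714-179358680), which esterifies cholesterol for storage, had 42.2, 48.3 and 51.5 CPM after siCHKA and 45.6, 48.2 and 55.4 CPM after siNT. The medians were nearly equal and the log2 fold change of -0.04 ± 0.06 (SE) did not pass (edgeR's quasi-likelihood test, adjusted p = 0.606).

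The 2 sets of siCHKA samples differed in the cholesterol genes beyond the few named so far. In 18 of the 28 genes each of replicates 1, 3 and 5 was above each of replicates 2, 4 and 6 (64.3% against 24.6% of all tested genes), and in 20 the sets were apart in either direction (71.4% against 47.5%). The mean of replicates 1, 3 and 5 was the higher one in 22 genes (78.6% against 48.6%). The median difference was 0.16 on the log2 scale for the cholesterol genes and -0.01 for all genes. The sets were seen in these data and not named by the labels, so these are descriptions with no test. Replicates 1, 3 and 5 were highest above the others for NPC1 (0.57), FDFT1 (0.44), HMGCS1 (0.41) and SQLE (0.34), and furthest below them for ABCA1 (-0.49), HSD17B7 (-0.24), INSIG2 (-0.19) and SC5D (-0.15). Several genes that did not pass over all samples crossed the siNT level between the sets. FDFT1 had a log2 fold change of 0.12 against siNT with replicates 1, 3 and 5 and of -0.33 with replicates 2, 4 and 6, MVD had 0.11 and -0.20, HSD17B7 had -0.05 and 0.19, and SOAT1 had 0.07 and -0.16. NSDHL had 0.16 with replicates 1, 3 and 5 and 0.00023 with replicates 2, 4 and 6, and ABCA1 had 0.09 and 0.59. In contrast, LBR, STARD4 and ABCG1 had nearly the same level in both sets. With replicates 1, 3 and 5 alone, 13 cholesterol genes were called lower and 7 higher, where 29.3% and 30.0% of all genes were. With replicates 2, 4 and 6 alone, 18 were called lower and 4 higher, where 30.7% and 31.5% of all genes were.

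**Figure D4:**
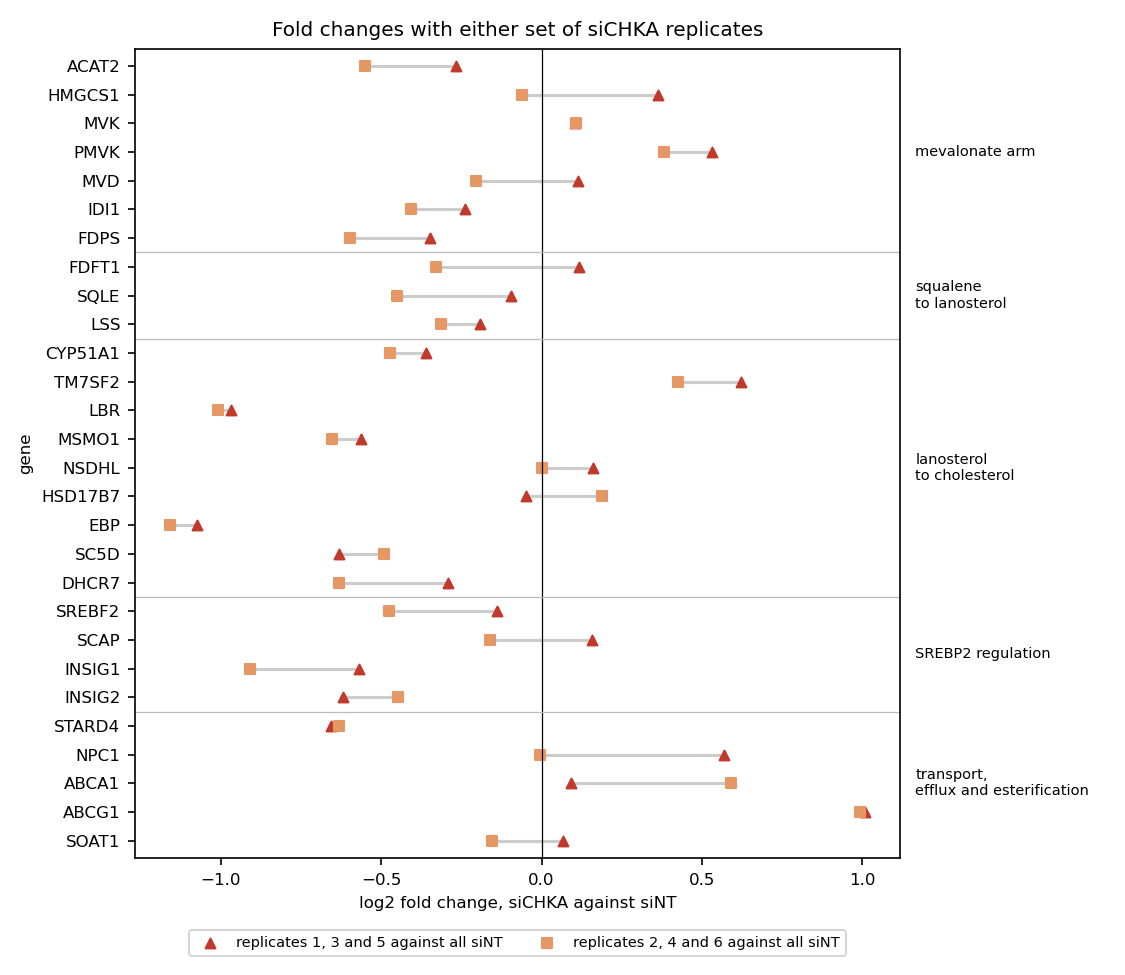
Log2 fold change of each cholesterol gene (y axis) against all 6 siNT samples (x axis), fitted with siCHKA replicates 1, 3 and 5 (triangles) or 2, 4 and 6 (squares) alone, with a line joining the values of a gene. Lines are long for NPC1 (0.57 and -0.01) and HMGCS1 (0.36 and -0.06) and short for LBR (-0.97 and -1.01) and ABCG1 (1.01 and 0.99).

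Levels per length differed by orders of magnitude among the cholesterol genes. In the siNT samples the mean was highest for INSIG1 with 661 ± 104 TPM (SD, n = 6), followed by FDFT1 with 502 ± 16.0 TPM and EBP with 374 ± 23.9 TPM, each apart from the next in all samples. LBR (190 ± 14.1 TPM), PMVK (175 ± 18.8 TPM) and MSMO1 (174 ± 5.38 TPM) followed and overlapped, as did IDI1 (156 TPM) and SREBF2 (153 TPM). From DHCR7 (115 TPM) through HMGCS1, FDPS, NSDHL and ACAT2 to SQLE (87.6 TPM) each gene overlapped the next, and so did the run from NPC1 (67.3 TPM) through TM7SF2, SCAP, LSS, SC5D, INSIG2 and STARD4 to SOAT1 (29.2 TPM). With these joined exon lengths MVD (18.6 TPM) stood apart from both neighbors. In the run of HSD17B7 (11.5 TPM), CYP51A1 (10.5 TPM), MVK (8.40 TPM) and ABCG1 (7.58 TPM) each gene overlapped the next, and ABCA1 stood apart as the lowest with 0.515 ± 0.131 TPM. With MANE Select lengths the same 3 genes led, with FDFT1 (725 TPM) before INSIG1 (480 TPM) and EBP (341 TPM), and ABCA1 was again lowest with 0.324 TPM. The order between them changed. DHCR7 moved from rank 9 to rank 4 and NSDHL from rank 12 to rank 16, and MVD (28.2 TPM) overlapped INSIG2 (25.2 TPM).

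**Figure D5:**
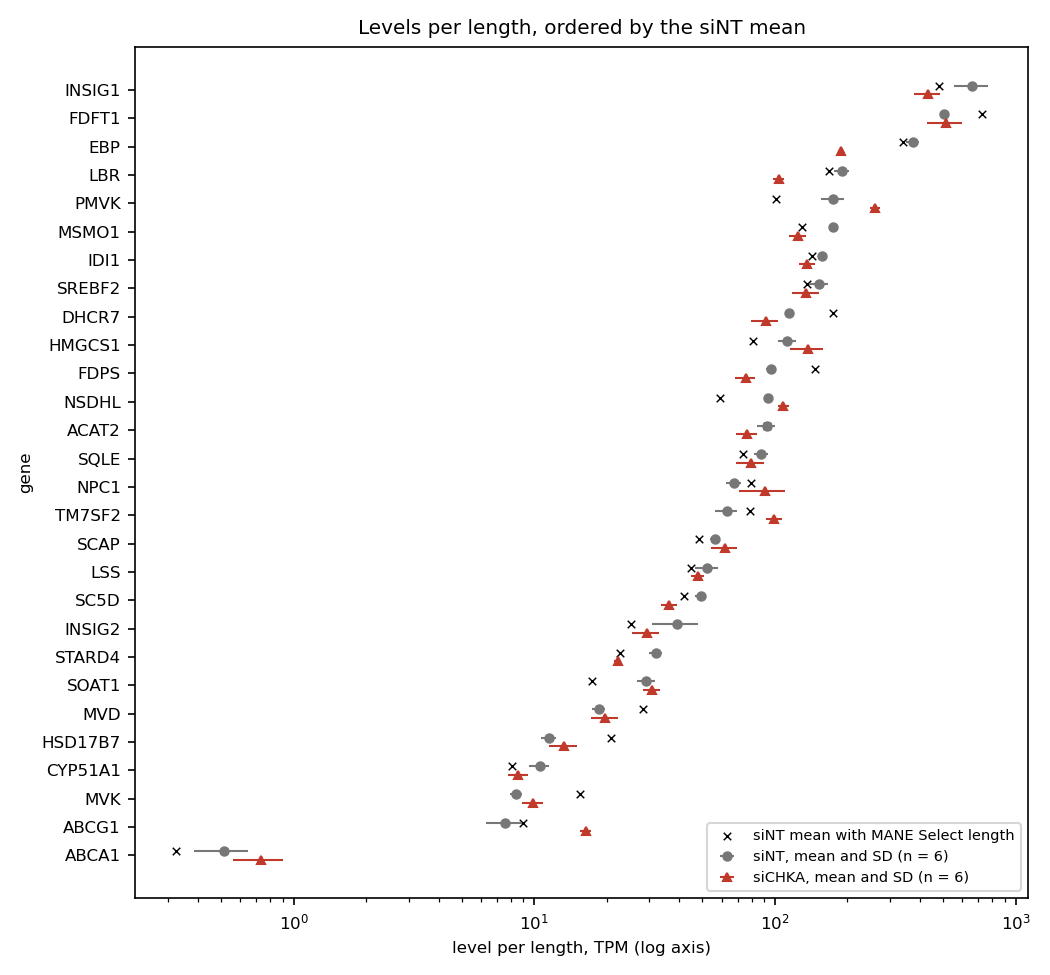
Level per length in TPM (x axis, log scale) of the 28 cholesterol genes (y axis), as the mean and SD of the 6 siNT samples (circles) and the 6 siCHKA samples (triangles) with joined exon lengths, and the siNT mean with MANE Select lengths (crosses). Levels span from 0.515 TPM for ABCA1 to 661 TPM for INSIG1 in siNT.

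Further genes of sterol metabolism were lower and higher in shares near those of all genes. Of 47 such genes 41 were tested, of which 11 were lower (26.8% against 30.1%) and 15 higher (36.6% against 32.1%), with a median log2 fold change of 0.06. SOAT2, CH25H and CYP7B1 had no counts in any sample. The 5 with the greatest changes past the threshold were GRAMD1C (1.59), which brings cholesterol from the plasma membrane to the endoplasmic reticulum, OSBPL9 (-1.19), a lipid carrier of the oxysterol-binding protein family, ABCA5 (0.93), an ABC transporter, TMEM97 (-0.82), a sterol-binding protein of the endoplasmic reticulum, and CYP46A1 (0.70), a cholesterol hydroxylase. GRAMD1C had 15.5, 17.0 and 18.0 CPM after siCHKA and 4.51, 5.89 and 6.18 CPM after siNT, with no overlap. In the group of efflux genes and their receptors 4 of 6 tested genes were higher (66.7% against 32.1% of all genes) and 0 were lower (against 30.1%), the liver X receptor genes NR1H2 (0.31) and NR1H3 (0.49) among them. For comparison, 11 of 15 genes of fatty acid synthesis, which are mostly targets of SREBP1, were lower (73.3% against 30.1% of all genes) and 2 were higher (13.3% against 32.1%), with a median of -0.37. ACSS2, which makes acetyl-CoA from acetate, had a log2 fold change of -1.59, and the desaturases FADS1 and FADS2 had -1.30 and -1.12. The values of ACSS2 and FADS1 were beyond that of EBP (-1.11), and that of FADS2 was about equal to it. SREBF1, which encodes SREBP1, was lower with -0.41.

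Some of the levels are less sure than their counts imply. In the GENCODE 44 annotation 68.2% of the exon bases of CYP51A1 and 36.4% of those of EBP lie in other gene models on the same strand that the count files do not list, and the sources used here do not state whether counting used strand. HMGCS1 shares 37.7% of its exon bases with an antisense RNA that the count files do not list. Reads on both strands there cannot be told apart if strand was not used. FDPS shares 18.6%, ACAT2 17.2% (with TCP1) and IDI1 15.0% with genes on the opposite strand that are listed. Reads on those bases would be left out if strand was not used.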

How the data were processed

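RNA of 6 siCHKA and 6 siNT samples of C4-2 cells was sequenced as single-end reads of 40 bases. The labels speak of flow sorted cells and a miRNeasy kit, whereas the study's methods name an Allprep kit. A harvest time is not given in the sources used here. The authors aligned them to GRCh37 with TopHat2 2.0.4 and counted reads on Ensembl genes with HTSeq 0.5.3p9, and the deposited values are raw, unscaled counts, with 4 files for each sample. That counting leaves out reads with several alignments and reads on overlapping genes. The strand setting is not given in the sources used here. The study's legends speak of 6 biological replicates for one plot and of triplicates for others, and the labels name 6 replicates per group with no culture or batch.

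The 4 count files of a sample differed by no more than counting noise (chi-square per degree of freedom of 0.986 to 1.01) and were summed. Rows that name no gene were left out, and of all entries tallied they held 3.96% to 5.97% (no feature), 2.83% to 2.93% (ambiguous) and 26.1% to 30.6% (not uniquely aligned). Symbols and GRCh38 coordinates were taken from GENCODE 44 by identifier (44824 of 54127 identifiers, 82.8%). Counts were tested under R 4.3.3 with edgeR 4.0.16 (low counts removed with filterByExpr, TMM factors, quasi-likelihood F test of siCHKA against siNT with no covariate, Benjamini-Hochberg adjustment over all tested genes, threshold 0.05). Standard errors were obtained by dividing the log2 fold change by the root of the F value, CPM were computed from TMM library sizes, and log2 CPM used a prior count of 2. Single values were compared with exact permutation tests over all 924 splits. The fit was tested on simulated counts. TPM were computed from counts and joined exon lengths over all genes with a length. Python 3.11.15 with pandas 2.3.3 was used otherwise.

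The cholesterol genes and all gene lists were chosen with earlier results of these data known. Genes named in full were those past the threshold by at least 0.5 on the log2 scale, and HMGCS1, SQLE, SREBF2, SCAP, INSIG1, INSIG2, NPC1, ABCA1, ABCG1 and SOAT1 whatever their values. The remaining members were named with their log2 fold change, and of the further sterol and fatty acid genes the 5 and 3 with the greatest change and at least 1 CPM. Alternatives were RLE and upper-quartile factors, DESeq2 1.42.0, other filters, a replicate block, either set of siCHKA replicates, 1 count file per sample, a threshold of 0.01, and an offset for GC content and length with and without the block. Scaling by library size alone and MANE Select lengths were chosen after seeing the data. The ratio of TM7SF2 to LBR was not among the planned comparisons.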

Additional observations from a re-analysis of the deposited data

How the results depend on the processing

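Over 13 alternatives, 15 of the 19 cholesterol genes that passed kept their call and direction in each: ACAT2, PMVK, IDI1, FDPS, CYP51A1, TM7SF2, LBR, MSMO1, EBP, SC5D, DHCR7, INSIG1, INSIG2, STARD4 and ABCG1. Of the 9 that did not pass, 0 kept that status and their direction in every alternative. The exceptions among the 19 were SQLE and SREBF2 (no call with upper-quartile scaling, library size alone or siCHKA replicates 1, 3 and 5), LSS (no call with upper-quartile scaling or library size alone) and NPC1 (no call at a threshold of 0.01 or with replicates 2, 4 and 6). With upper-quartile factors 9 cholesterol genes were higher, 3 were lower and 4 higher by at least 0.5, and the median was -0.11, beside a median of all genes of 0.18. With library size alone, 10 were higher, 3 were lower and 4 higher by at least 0.5, with a median of -0.11 beside 0.19 for all genes, and 2995 genes were lower and 6666 higher. With siCHKA replicates 1, 3 and 5, 7 were higher, 4 of them by at least 0.5, with a median of -0.12. Without an expression filter 1 was higher by at least 0.5. The offset for GC content and length left 4 lower and 1 higher by at least 0.5, and the offset with the replicate block left 1 higher. Shares of all genes at 0.5 are not given for these alternatives, so these counts have no background beside them. With the offset TM7SF2 was 0.33 and PMVK 0.24, both still past the threshold. HMGCS1, MVK, NSDHL, HSD17B7 and ABCA1 gained a call with upper-quartile scaling and with library size alone, and SCAP with library size alone. HMGCS1 also gained one with 1 count file and with the offset, with and without the block. Fits of a single set of siCHKA replicates gave calls to HMGCS1, NSDHL and SCAP (1, 3 and 5) and to MVD, FDFT1, ABCA1 and SCAP, now negative (2, 4 and 6), but the sets were seen in these data, so such calls are no test. The cause was not tested.

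Signs turned for genes near 0. SCAP was -0.00031 with RLE factors, -0.013 with DESeq2, -0.022 without a filter, -0.16 with replicates 2, 4 and 6, -0.036 with 1 count file, -0.099 with the offset and -0.10 with the offset and the block. MVD was 0.11 with upper-quartile factors, library size alone and replicates 1, 3 and 5, and 0.049 with 1 count file. FDFT1 was 0.055, 0.061 and 0.12 in those first 3 settings. SOAT1 was 0.11 with both scalings, 0.068 with replicates 1, 3 and 5, 0.0088 with 1 count file, 0.051 with the offset and 0.050 with the offset and the block. HSD17B7 was -0.049 with replicates 1, 3 and 5 and -0.11 with 1 count file. With replicates 2, 4 and 6, HMGCS1 was -0.061 and NPC1 -0.0059. ABCA1 was not tested with 1 count file.

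Deviations of same-numbered siCHKA and siNT samples correlated from -0.40 to 0.32, with no common sign. The labels do not say whether a number marks a shared batch, and these correlations cannot exclude it, since each group has splits of its own. With the replicate number as a block, 4273 genes were lower and 4494 higher, 15 cholesterol genes were lower and 4 higher, and no call on a cholesterol gene changed. Depth limits ABCA1, which had 13 to 45 counts per sample. The intervals of counting error do not cover differences in the preparation of the samples.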

Other observations

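Values outside the comparisons concern short words in 3′ UTRs. Of 12222 tested genes with a 3′ UTR in their MANE Select transcript, 23.7% held the word GCCAGAT or TGCCCTT. The median log2 fold change was -0.12 for those with either word, beside 0.03 for all 14501 tested genes. These 14501 include the genes with the words and genes without such a 3′ UTR, and the medians are not matched for UTR length. Of the 28 cholesterol genes, 4 held one: HMGCS1, MVK, IDI1 and SC5D. Among the 24 without, the median was -0.26. The part of these words in the results was not tested. The sequences of the siRNA pool were not used here.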
